A study of Oryctolagus cuniculus with 6 samples.

Results

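The miR-506 family was followed in the extracellular vesicles of rabbit seminal plasma, small particles enclosed by membrane that are shed by cells. Its members were taken by name from the table of mature microRNAs (miRNAs): miR-506-5p, miR-506-3p, miR-507-3p, miR-508-3p, miR-509c-5p, miR-509c-3p and miR-513-5p, which makes 7 of 577 rows. The Sub-fertile libraries came from 3 bucks of low and the Fertile libraries from 3 bucks of high seminal quality, picked from 14 California x New Zealand white males aged 10 to 12 months that gave 8 ejaculates each over 1 month. Each group has 3 biological replicates of 2.5 mL of seminal plasma, per the labels' protocols, and no animal was treated. The groups rest on semen measures, and fertility itself was not analysed here. The miRNAs of the family come from vesicles and not from testis tissue, so the organ that supplied them was not measured.

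MicroRNAs are cut from a hairpin precursor whose 5p and 3p arms can each yield a mature strand, and the strand that is loaded into an Argonaute protein represses messenger RNAs that match its seed. The miR-506 family is a group of X-linked miRNAs that evolves fast, has been copied many times in mammals, lies near FMR1 and is expressed mainly in testis. In mice, its loss has been linked to sperm that compete less well. In human cells, miR-506-3p is known to repress SNAI2, a driver of epithelial to mesenchymal transition, miR-507 to repress the stress regulator NFE2L2, and miR-513 to repress the immune checkpoint ligand CD274. Human miR-508-3p and miR-509-3p are known as strands that are low in renal carcinoma.

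All 7 hairpins of the family in the table lie side by side in the rabbit. In the RefSeq gene table of assembly mOryCun1.1, a build other than that of the study and consulted only for gene names and their order, the genes follow each other as MIR513, MIR509C, MIR506, MIR508, MIR507, MIR509B and MIR509A. No other gene starts between the first and the last of them (0 genes), and the next protein-coding gene listed after the run is FMR1. At a gap of at most 10 kb between miRNA genes they form 3 runs. MIR513, MIR509C and MIR506 make up the first, MIR508, MIR507 and MIR509B the second, and MIR509A stands alone. Of the 14 mature strands of these hairpins, 7 are members and the other 7 are relatives outside the member list, namely both arms of miR-509a and miR-509b and the strands miR-507-5p, miR-508-5p and miR-513-3p.

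Levels are given in scaled CPM, a read count divided by library depth and by a further factor per library. They are counts per mature strand and are not divided by length. How efficiently each strand entered the libraries was not measured. Whole counts could be recovered from the values and summed to between 129387 (replicate 1) and 636929 (replicate 3) in Sub-fertile and between 453675 and 772619 in Fertile libraries. The worth of 1 count was 6.24 units in the shallowest library, Sub-fertile replicate 1, and between 1.33 and 4.08 units in the other 5. Sub-fertile replicate 1 also stands apart in its other miRNAs, as shown further on, and the group comparisons are given with it and, beside them, without it.

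Among the members, miR-508-3p and miR-509c-5p held most of the signal, at 49.4% and 40.3% of the members' counts on average. The level of miR-508-3p was 6950, 8704 and 13302 in Sub-fertile replicates 1, 2 and 3, against 9844, 7610 and 9750 in Fertile replicates 1, 2 and 3. In scaled CPM the lowest and the highest values were both Sub-fertile, and the Fertile values lay between them. As a share of library counts, however, Fertile replicate 2 was the lowest, below Sub-fertile replicate 1. With a mean of 9360 ± 2246 (SD, n = 6) miR-508-3p ranked 26 among the 577 rows, between miR-30e-5p at 9571 and miR-16b-5p at 8590. The level of miR-509c-5p was 3915, 6690 and 9939 in Sub-fertile and 9376, 8780 and 8036 in Fertile replicates 1, 2 and 3, with a mean of 7789 ± 2209 (SD, n = 6) and rank 28. Here Sub-fertile replicates 1 and 2 lay below every Fertile library and Sub-fertile replicate 3 above, in scaled CPM. As a share of library counts, Sub-fertile replicate 3 lay below Fertile replicate 1. The row ranked just above miR-509c-5p was miR-16b-5p, and the one just below was miR-26b-5p at 6393. The ranges of these neighbours over 6 libraries overlapped those of both members, so the ranks are not separated by more than the spread.

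The next 2 members by level were the minor arm of miR-509c and the major arm of miR-506, at means of 810 and 798 units. The level of miR-509c-3p was 493, 788 and 1128 in Sub-fertile and 698, 881.7 and 871.2 in Fertile replicates 1, 2 and 3. That of miR-506-5p was 400, 764 and 1150 in Sub-fertile and 853, 730 and 894 in Fertile replicates 1, 2 and 3. For both, Sub-fertile replicate 1 was the lowest and Sub-fertile replicate 3 the highest of the 6 libraries. The other arm of miR-506, miR-506-3p, reached 99.9, 143 and 231 in Sub-fertile and 283, 230 and 215 in Fertile replicates 1, 2 and 3. Of its Sub-fertile libraries, replicate 3 alone came within the Fertile range.

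The least abundant members were miR-513-5p and miR-507-3p, at a mean of 93.6 and 91.6 units. The level of miR-513-5p was 56.2, 53.1 and 132 in Sub-fertile and 156, 75.9 and 88.0 in Fertile replicates 1, 2 and 3. It rested on 9, 13 and 76 counts in Sub-fertile and 117, 39 and 38 in Fertile replicates 1, 2 and 3. In this member the Fertile group held the highest library, and Sub-fertile replicates 1 and 2 lay below all Fertile ones. The level of miR-507-3p was 43.7, 53.1 and 188 in Sub-fertile and 99.97, 83.7 and 81.1 in Fertile replicates 1, 2 and 3. Its counts were 7, 13 and 108 in Sub-fertile and 75, 43 and 35 in Fertile replicates 1, 2 and 3. The 3 Fertile libraries were close to each other, while the Sub-fertile ones spanned a ratio of 4.30.

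**Figure D1:**
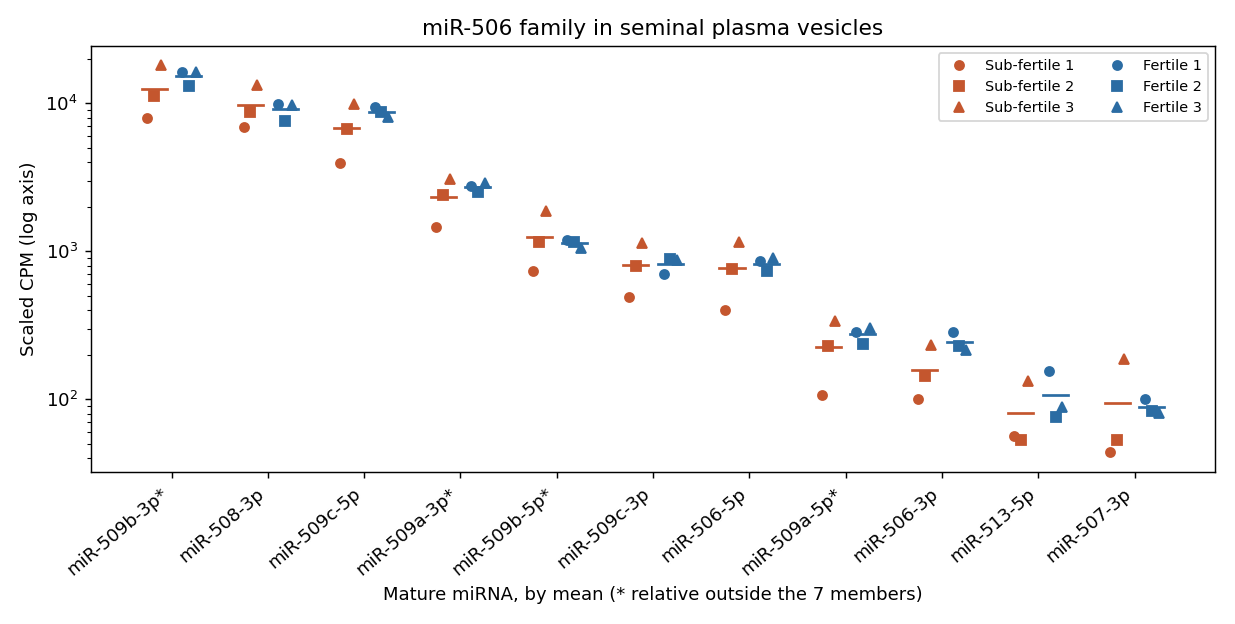
Levels of the 7 members and of the 4 tested relatives (marked *) in each library, in scaled CPM on a log axis. Symbols stand for replicates and horizontal bars for group means, with Sub-fertile left of Fertile. For each of the 11 strands the Sub-fertile libraries spread more widely than the Fertile ones.

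The order of the members held in all libraries between tiers but not within them. The level of miR-508-3p was above that of miR-509c-5p in 5 of 6 libraries, with Fertile replicate 2 as the exception, and the ratio had a geometric mean of 1.23 and a range of 0.867 to 1.77. Between miR-509c-3p and miR-506-5p the order was split, with 3 of 6 libraries each way. Between miR-513-5p and miR-507-3p, 3 of 6 libraries had more miR-513-5p and 1 had equal counts. In contrast, miR-509c-5p exceeded miR-509c-3p by 7.92 to 13.4 times, miR-506-5p exceeded miR-506-3p by 3.01 to 5.31 times, and miR-506-3p exceeded miR-513-5p by 1.74 to 3.00 times, each in 6 of 6 libraries. All ratios between members in this paragraph are of levels with 1 added.

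As a share of all counts, the 7 members made up 1.48%, 1.74% and 2.35% of Sub-fertile replicates 1, 2 and 3, and 2.07%, 1.76% and 1.90% of Fertile replicates 1, 2 and 3. The 95% exact binomial interval was 1.41 to 1.55% in the shallowest library and 2.32 to 2.39% in Sub-fertile replicate 3, so these libraries differed by more than the counting error. Such intervals cover counting error only. The mean share was 1.86% ± 0.448 in Sub-fertile and 1.91% ± 0.154 in Fertile vesicles (SD, n = 3 each). The difference, Sub-fertile minus Fertile, was -0.052 percentage points and turned to 0.136 without Sub-fertile replicate 1 (2.05% in Sub-fertile and 1.91% in Fertile vesicles), to 0.0067 without Sub-fertile replicate 2 and to 0.028 without Fertile replicate 1. Without Sub-fertile replicate 3 it was -0.30, and without Fertile replicate 2 it was -0.126, so the share gave no stable direction. The relatives outside the member list added 1.63% ± 0.429 in Sub-fertile and 1.86% ± 0.199 in Fertile vesicles (SD, n = 3 each). All 14 strands together thus took between 2.75 and 4.46% of a library. Without Sub-fertile replicate 1, the difference in the share of the relatives moved to -0.055 points, against -0.235 with it, and that of all 14 strands to 0.081 points, against -0.287 with it.

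The strand with the highest level in the whole family was not a member. Levels of miR-509b-3p were 7949, 11196 and 18035 in Sub-fertile and 16295, 13140 and 16370 in Fertile replicates 1, 2 and 3, with rank 18 in the table. It held 35.7% ± 0.867 of the counts of the 14 strands in Sub-fertile and 38.8% ± 1.65 in Fertile vesicles (SD, n = 3 each). The second copy, miR-509a-3p, averaged 2309 ± 807 in Sub-fertile and 2724 ± 183 in Fertile vesicles (SD, n = 3 each). The 3 miR-509 copies share a name and differ by a letter, and no source used here says how reads that match more than 1 copy were assigned. The split between copies, and with it the arm use of each copy, is therefore uncertain.

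Within the 7 members, miR-508-3p took a larger share of the counts in each Sub-fertile library than in any Fertile library. Its share of their counts was 58.1%, 50.6% and 51.0% in Sub-fertile and 46.2%, 41.4% and 48.9% in Fertile replicates 1, 2 and 3. The mean difference, Sub-fertile minus Fertile, was 7.76 percentage points, with 53.3% ± 4.22 in Sub-fertile and 45.5% ± 3.81 in Fertile vesicles (SD, n = 3 each). The two-sided p of the exact permutation test was 0.1, with an adjusted p of 0.25 over the 15 exact tests run on arm ratios and shares. Without Sub-fertile replicate 1 the difference was 5.33 points (exact permutation p = 0.2). With 3 libraries against 3 this test cannot go below 0.1, so it cannot reach 0.05. The share of miR-509c-5p was 32.7%, 38.9% and 38.1% in Sub-fertile and 44.0%, 47.7% and 40.3% in Fertile replicates 1, 2 and 3. As the shares of the 2 leading members add up to most of the total, these are not separate observations. The small share of miR-506-3p was 0.836%, 0.831% and 0.888% in Sub-fertile and 1.33%, 1.25% and 1.08% in Fertile replicates 1, 2 and 3, again with no overlap. The shares of miR-506-5p, miR-507-3p, miR-509c-3p and miR-513-5p overlapped between the groups.

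**Figure D2:**
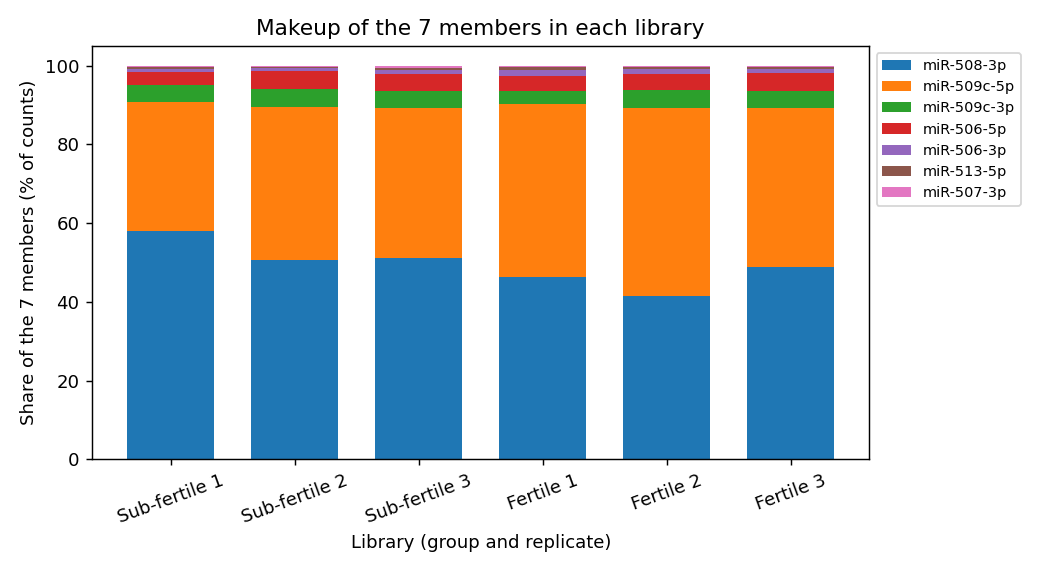
Makeup of the 7 members in each library, as a percentage of their summed counts, with the 3 Sub-fertile libraries left of the 3 Fertile ones. The blue segment of miR-508-3p spans 50.6 to 58.1% in Sub-fertile and 41.4 to 48.9% in Fertile libraries.

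Arm use split the family in 2. The 5p strand dominated in miR-513, miR-509c and miR-506, and the 3p strand in miR-508, miR-507, miR-509b and miR-509a, in every library. In the order of the RefSeq table, the first 3 genes of the run are those with more 5p and the next 4 those with more 3p. This arrangement was seen in the values and was not tested, and for the miR-509 hairpins it rests on how shared reads were assigned. Among all 145 hairpins with both arms listed and at least 100 counts over 6 libraries, 60.0% had more 5p than 3p, and the major arm held a median of 99.6% of the counts.

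The hairpin of miR-506 was the most balanced of the 7. Its 5p arm held 80.0%, 84.2% and 83.2% of the counts in Sub-fertile and 75.1%, 76.1% and 80.6% in Fertile replicates 1, 2 and 3. Over all libraries it held 79.2% (exact 95% interval 77.7 to 80.7%), and 6 of the 145 hairpins, miR-506 among them, had a major arm under 80%. The log2 ratio of 5p to 3p was 2.23 ± 0.23 in Sub-fertile and 1.77 ± 0.24 in Fertile vesicles (SD, n = 3 each), a difference of 0.46 (two-sided exact permutation p = 0.2, adjusted p = 0.375 over 15 tests). Without Sub-fertile replicate 1 it was 0.59 (exact permutation p = 0.2). Sub-fertile replicate 1, with 64 and 16 counts for the 5p and 3p arms, had a share within the Fertile range.

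In miR-509c the 5p share was 88.8%, 89.5% and 89.8% in Sub-fertile and 93.1%, 90.9% and 90.2% in Fertile replicates 1, 2 and 3. All Sub-fertile values were lower than all Fertile ones. The log2 ratio of 5p to 3p was 3.07 ± 0.08 in Sub-fertile and 3.42 ± 0.29 in Fertile vesicles (SD, n = 3 each), a difference of -0.35 (two-sided exact permutation p = 0.1, adjusted p = 0.25 over 15 tests). It was -0.31 without Sub-fertile replicate 1 (exact permutation p = 0.2) and -0.19 without Fertile replicate 1 (exact permutation p = 0.1, the lowest possible with 5 libraries). As counted, the other 2 copies of miR-509 used the opposite arm. The arm ratios of all 3 copies, and their group differences, depend on the unknown assignment of reads shared between copies. The 5p share was 9.05% ± 0.487 in Sub-fertile and 6.95% ± 1.01 in Fertile vesicles for miR-509b, and 8.47% ± 1.58 in Sub-fertile and 9.17% ± 0.502 in Fertile vesicles for miR-509a (SD, n = 3 each). For miR-509b the groups did not overlap either, with 8.48 to 9.33% in Sub-fertile and 6.03 to 8.02% in Fertile libraries, and the log2 ratio differed by 0.42, opposite in sign to miR-509c (two-sided exact permutation p = 0.1, adjusted p = 0.25 over 15 tests). How many hairpins outside the family have arm shares that do not overlap between the groups was not analysed, so these separations have no background beside them. Across the 6 libraries the 5p share ran from 88.8 to 93.1% in miR-509c, from 6.03 to 9.33% in miR-509b and from 6.77 to 9.91% in miR-509a.

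The remaining hairpins yielded nearly 1 arm alone. Over all libraries miR-508 had 22 counts of 5p against 26392 of 3p, a 5p share of 0.0833% (exact 95% interval 0.0522 to 0.126%). The hairpin of miR-507 had 1 count of 5p against 281 of 3p. That of miR-513 had 292 counts of 5p against 1 of 3p. Both single counts of the minor arm lay in Fertile replicate 3. The minor arm of miR-508 had 0, 1 and 7 counts in Sub-fertile and 6, 4 and 4 in Fertile replicates 1, 2 and 3. These 3 minor arms did not pass the filter on low values, and a count of 0 in the shallowest library allows up to 18.7 units.

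**Figure D3:**
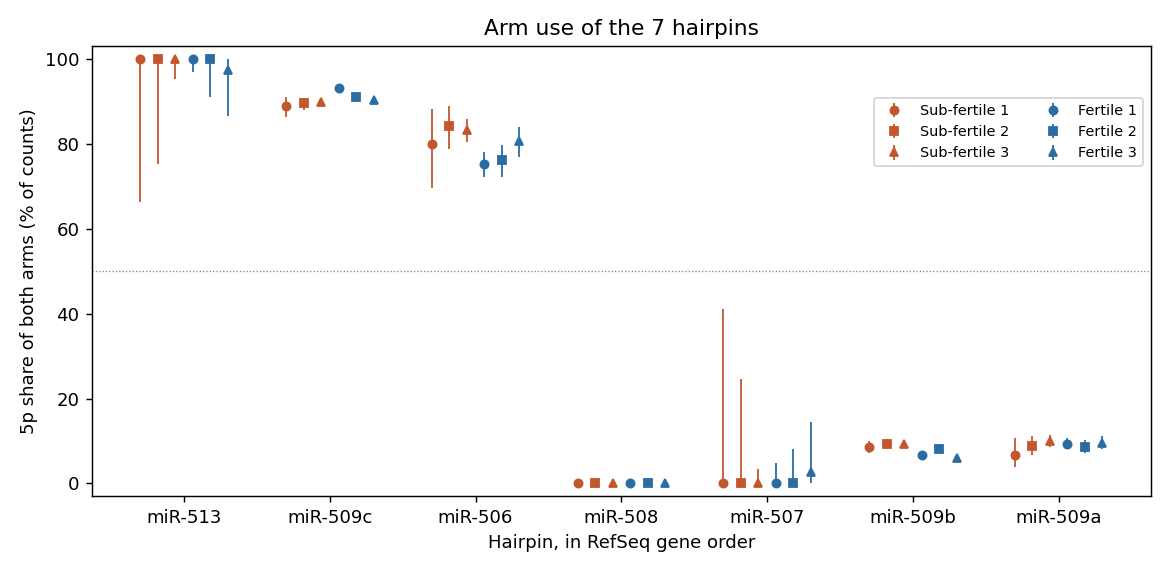
Share of the 5p arm in the counts of both arms (%) for the 7 hairpins in RefSeq gene order, with 1 symbol per library, Sub-fertile left of Fertile, and exact 95% binomial intervals. The first 3 hairpins lie above 75% and the last 4 below 10% in every library.

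The comparison of Sub-fertile with Fertile vesicles asked whether the family differs between bucks parted by semen quality. Of the 7 members, which all passed the filter on low values, 0 passed an adjusted p of 0.05 in either direction (limma, Benjamini-Hochberg over 234 tested miRNAs), 0 had an unadjusted p under 0.05, and 0 passed with edgeR or DESeq2 on recovered counts. Of all tested miRNAs 3.42% passed with limma, 2.99% with edgeR and 7.26% with DESeq2, and 45 of the 234 had an unadjusted p under 0.05 with limma. The groups overlapped in each of the 7 members, whereas 25.6% of all tested miRNAs had groups that did not overlap. The median log2 change of the members was -0.22, against -0.10 over all tested miRNAs, and 6 of 7 were below 0, against 55.6% of all tested miRNAs. The median of the members was -0.10 under plain CPM, with 5 of 7 below 0, against 0.020 over all miRNAs. It was -0.0027 under edgeR and -0.011 under DESeq2, with 4 of 7 below 0 in each, against 0.072 under edgeR and 0.061 under DESeq2 over all miRNAs. Fewer vesicles from a source and less of a miRNA per vesicle cannot be told apart in such libraries.

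The smallest p belonged to miR-506-3p, with a log2 change of -0.69 (SE 0.35, 95% interval -1.48 to 0.11, limma adjusted p = 0.32). For miR-509c-5p the log2 change was -0.45 (SE 0.31, 95% interval -1.16 to 0.26, limma adjusted p = 0.51). For miR-508-3p it was 0.047 (SE 0.25, 95% interval -0.54 to 0.63, limma adjusted p = 0.92). The interval of miR-508-3p therefore leaves room for changes of either sign. Values for the others were -0.46 for miR-513-5p, -0.22 for miR-506-5p, -0.21 for miR-507-3p and -0.097 for miR-509c-3p, with adjusted p from 0.62 to 0.88 (limma). The sign of miR-509c-3p turned under plain CPM (0.020), edgeR (0.075) and DESeq2 (0.065), and that of miR-507-3p under edgeR (0.25) and DESeq2 (0.23). Among the 4 tested relatives 0 passed. Their log2 changes were -0.44 for miR-509a-5p, -0.38 for miR-509b-3p, -0.30 for miR-509a-3p and 0.045 for miR-509b-5p.

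**Figure D4:**
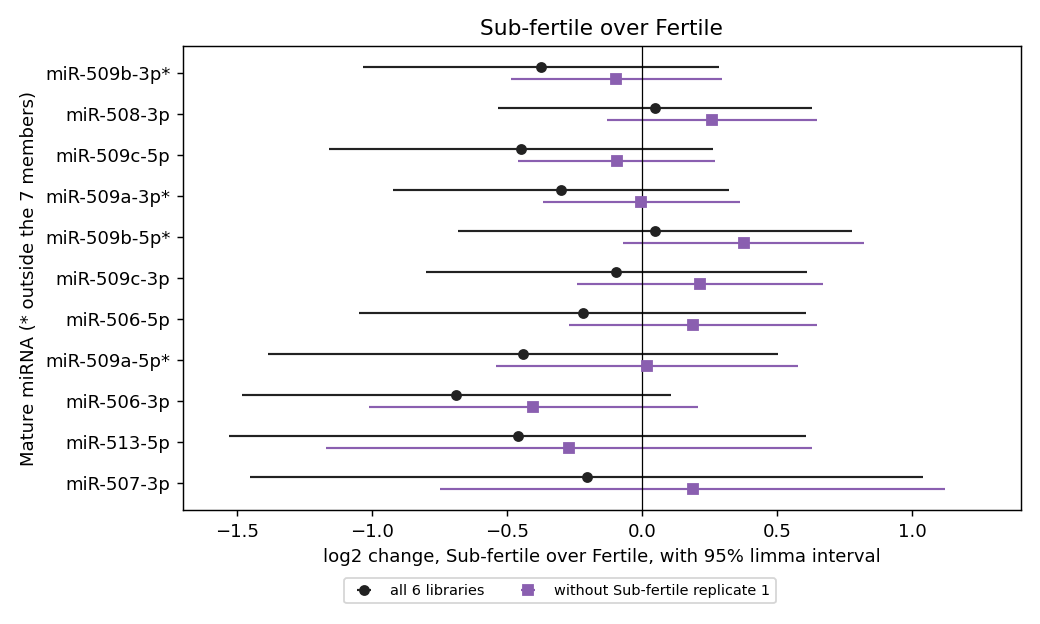
Log2 change of the 7 members and 4 relatives (marked *), Sub-fertile over Fertile, with 95% limma intervals, for all 6 libraries (circles) and without Sub-fertile replicate 1 (squares). All intervals include 0, and without that library each estimate lies further to the right.

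The Sub-fertile libraries did not move as a group. In all 7 members Sub-fertile replicate 1 lay below the 3 Fertile libraries in scaled CPM, as it did in 47.9% of tested miRNAs. The further factor that divides these values was 1.24 in this library, 0.902 in Sub-fertile replicate 3 and 0.951 to 0.971 in the Fertile libraries. By recovered counts over library totals, miR-508-3p in Sub-fertile replicate 1 (1113 of 129387) lay above Fertile replicate 2 (3910 of 536026). In 5 of 7 members, miR-506-3p and miR-513-5p being the exceptions, Sub-fertile replicate 3 lay above the 3 Fertile libraries, as it did in 36.8% of tested miRNAs. Both held in 5 of 7 members, in 4 of 4 tested relatives and in 17.1% of tested miRNAs, again in scaled CPM. By counts over library totals, miR-509c-5p in Sub-fertile replicate 3 (5712 of 636929) lay below Fertile replicate 1 (7034 of 772619). For the 2 leading members the joint pattern thus rests on the further factor. How often it holds over all miRNAs under plain CPM was not analysed. The ratio of Sub-fertile replicate 3 to Sub-fertile replicate 1 ran from 1.91 in miR-508-3p to 4.30 in miR-507-3p. By contrast, the ratio of the highest to the lowest Fertile library ran from 1.17 in miR-509c-5p to 2.05 in miR-513-5p. The unequal further factors of Sub-fertile replicates 1 and 3 widen every ratio between these 2 libraries. Those of the Fertile libraries are nearly equal.

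The SD of log2 levels was larger among Sub-fertile than among Fertile libraries in 7 of 7 members, and in 81.6% of tested miRNAs. Its median over the members was 0.67 in Sub-fertile and 0.19 in Fertile libraries, against 0.56 in Sub-fertile and 0.22 in Fertile libraries over all tested miRNAs. In median SD the members are thus near the table, but not in the order of the Sub-fertile libraries. Among these, replicate 1 was lowest and replicate 3 highest in 6 of 7 members, against 27.4% of tested miRNAs. Strands of 1 neighbourhood and 1 library are not independent, so these counts describe the libraries and were not tested.

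Without Sub-fertile replicate 1, the median log2 change of the members was 0.19, against -0.022 over all tested miRNAs. In that fit 0 of 7 members passed, while 16.7% of tested miRNAs did (limma). The log2 change was then 0.26 for miR-508-3p, 0.21 for miR-509c-3p, 0.19 for miR-506-5p, 0.19 for miR-507-3p, -0.10 for miR-509c-5p, -0.27 for miR-513-5p and -0.40 for miR-506-3p. The sign had thus turned for miR-509c-3p, miR-506-5p and miR-507-3p. Without Sub-fertile replicate 3, all 7 were below 0 with a median of -0.77, 3 had an unadjusted p under 0.05, and 0 passed (smallest limma adjusted p = 0.10). Over all 234 tested miRNAs the median was then -0.16, 50 had an unadjusted p under 0.05, and 3.85% passed (limma). The direction of the members as a list therefore depended on which Sub-fertile library was left out.

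**Figure D5:**
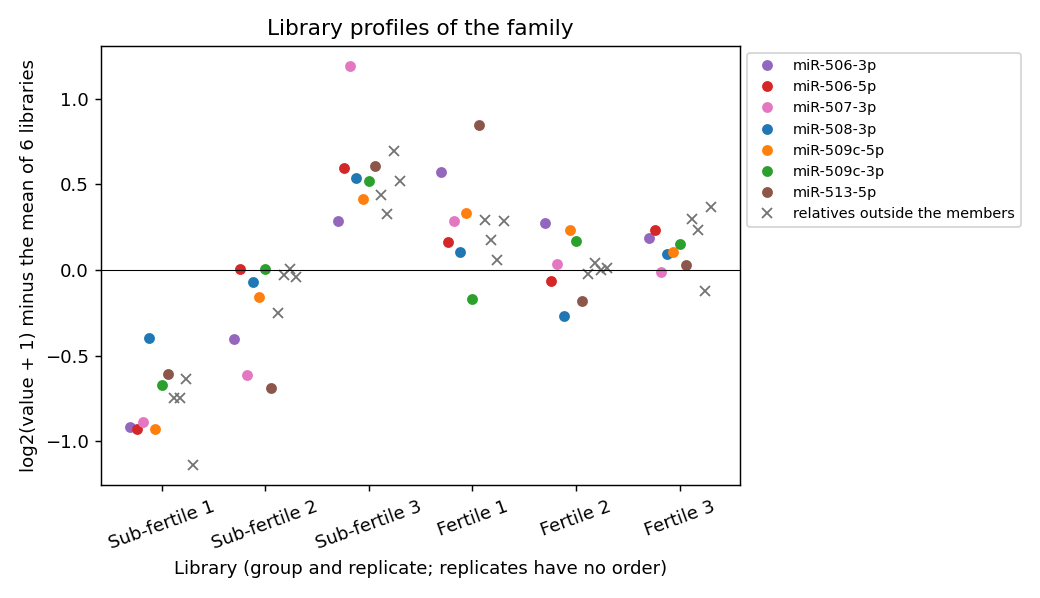
Profile of each member (coloured points) and tested relative (crosses) over the 6 libraries, as log2(value + 1) minus its own mean, with the Sub-fertile libraries left of the Fertile ones. All points of Sub-fertile replicate 1 lie below 0 and all points of Sub-fertile replicate 3 above 0.

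Marker miRNAs of other sources were set beside these values. The 5 tested miRNAs of germ and ciliated cells (miR-34b, miR-34c and miR-449a strands) had 0 past the threshold. Their list summed to 17041, 3304 and 1792 in Sub-fertile and 2189, 2443 and 1752 in Fertile replicates 1, 2 and 3, so the library with the lowest miR-506 family had the highest sum of this list. That sum was carried by miR-34c-5p (11502 in Sub-fertile replicate 1). The log2 change was -0.85 for miR-34b-3p, against 0.37 to 2.06 for the other tested strands of the list. Early germ cell and pluripotency miRNAs, mostly miR-371-3p, summed to 868, 127 and 29.6 in Sub-fertile and to between 70.6 and 117 in Fertile libraries, with 10 of 13 listed strands at 0 throughout. The 4 epithelial strands of miR-200c and miR-141 summed to 76707, 83136 and 122690 in Sub-fertile and 92025, 85052 and 84257 in Fertile replicates 1, 2 and 3. This sum was lowest in Sub-fertile replicate 1 and highest in Sub-fertile replicate 3, and 0 of 4 passed. It was carried by miR-200c-3p and miR-141-3p, of which miR-200c-3p was lowest in Fertile replicate 3, while the minor arms miR-141-5p and miR-200c-5p were highest in Fertile replicate 2. Leukocyte strands summed to 767 to 1118 in Sub-fertile and 312 to 695 in Fertile libraries, with 1 of 6 past the threshold (miR-146a-5p, higher in Sub-fertile), and striated muscle strands to 181 to 268 in Sub-fertile and 11.6 to 60.0 in Fertile libraries, with 1 of 2 (miR-206-3p, higher in Sub-fertile). The log2 change was -0.56 for miR-150-5p, 0.11 for miR-142-5p, 0.45 for miR-155-5p, 1.17 for miR-142-3p and 1.56 for miR-223-3p. Of these, miR-223-3p was highest in Fertile replicate 3 (364). The muscle sum in Sub-fertile libraries was carried by miR-206-3p. In contrast, miR-1-3p was highest in Fertile replicate 1 (50.7), and the miR-133 strands were at 0 throughout. Erythroid strands did not exceed 6.24 in Sub-fertile and 7.79 in Fertile libraries, and the liver strand was at 0 in Sub-fertile and at most 5.84 in Fertile libraries. No row was matched to the epididymal miR-888 group or to the gonadal miR-202 (0 rows), which were not analysed here. The part of these sources, and of depth, in the values of the family was not tested.

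By library profile, the miRNA most like miR-508-3p outside the members was the epithelial miR-141-3p. Likeness was measured as the root mean square difference of centred log2 levels over the 6 libraries, in which 0 is identical, and the median over 233 tested miRNAs was 0.55. For miR-141-3p it was 0.064. Its levels were 35812, 40102 and 63542 in Sub-fertile and 44999, 36773 and 44061 in Fertile replicates 1, 2 and 3. The next were miR-1264-3p (0.15), miR-19b-3p (0.15), miR-151-5p (0.15) and miR-374a-5p (0.17). The nearest relative, miR-509b-5p, came 9th of the 233 at 0.19, and the nearest member, miR-509c-3p, came 21st at 0.24. The member least like it was miR-507-3p at 0.43. Profiles over 6 libraries share depth and scaling, and likeness is a description of them.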

How the data were processed

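Vesicles were isolated by ultracentrifugation and size exclusion, and small RNA libraries were prepared with the QIAseq miRNA chemistry, per the labels' protocols. bcl2fastq, Bowtie2 2.2.2, DESeq2 and build OryCun2.0 are named in the submitters' processing notes, with no role or order. The authors deposited a normalized signal for each miRNA in each library under the name CPM. Column totals differ from those of plain CPM, and each value divided by the lowest non-zero value of its library gives a whole number (tolerance 1e-06). Counts were recovered on that basis, and the implied extra scaling factors ran from 0.902 (Sub-fertile replicate 3) to 1.24 (Sub-fertile replicate 1). No source used here says whether reads or unique molecules were counted.

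The deposited values were fitted without further scaling, with limma 3.58.1 (R 4.3.3) and a mean-variance trend, on log2(value + 1). The two-sided test ran over the 234 miRNAs that reached 10 in 3 or more of 6 libraries. Log2 changes compare Sub-fertile with Fertile and understate those of low miRNAs, owing to the added 1. Arm ratios are log2 of counts with 0.5 added, compared by exact permutation over libraries. Alternatives were other pseudocounts, filters and scalings, edgeR 4.0.16, DESeq2 1.42.0, a replicate block and leaving out each library, with the filter kept from all 6. The limma steps were tested on simulated data. Within each group, no library was a copy of another (lowest chi-square per degree of freedom between replicates 14.2). Pairs across the groups were not compared in this way. The labels call the replicates biological. The members, lists and tests were chosen with earlier results of these data known. Named miRNAs are the 7 members, rows of the related lists, rank neighbours of the leading 2 members and the 5 profiles most like miR-508-3p.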

Additional observations from a re-analysis of the deposited data

How the results depend on the processing

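The count of 0 members past the threshold held in all 15 alternatives. Over all miRNAs 8 passed (limma), against 14 with a filter at 100, where 131 were tested, and 17 with DESeq2; for DESeq2 the cause was not tested. Leaving out 1 library gave 3 to 39: 39 without Sub-fertile replicate 1, 5 without Sub-fertile replicate 2, and 3 without any 1 of the Fertile replicates. With the replicate number as a block 0 passed (limma). At an unadjusted p under 0.05 there were 43 with the block and 45 without it, 49 with edgeR and 40 with DESeq2, and the adjusted calls of the unblocked edgeR and DESeq2 tests were 7 and 17. Deviations from the group means correlated at 0.045, -0.116 and 0.105 between libraries of the same number, so the numbers were not taken as pairs. The log2 change of miR-506-3p, miR-509c-5p and miR-513-5p kept its sign in each alternative that tested it. With 1 library left out, it ran from -1.01 to -0.40 for miR-506-3p, from -0.77 to -0.096 for miR-509c-5p and from -0.88 to -0.15 for miR-513-5p. It ran from -0.57 to 0.19 for miR-506-5p, from -0.85 to 0.19 for miR-507-3p, from -0.21 to 0.26 for miR-508-3p and from -0.38 to 0.21 for miR-509c-3p. Their signs turned without Sub-fertile replicate 1 (miR-506-5p, miR-507-3p and miR-509c-3p), replicate 2 (miR-507-3p, 0.048) and replicate 3 (miR-508-3p), and without Fertile replicate 2 (miR-508-3p, -0.075). With edgeR and DESeq2 signs turned for miR-507-3p (0.25 and 0.23) and miR-509c-3p (0.075 and 0.065), and with plain CPM for miR-509c-3p (0.020). The range over left-out libraries was 0.37 to 0.60 for the arm ratio of miR-506, -0.46 to -0.19 for that of miR-509c (nearest 0 without Fertile replicate 1), 5.33 to 9.47 points for the share of miR-508-3p (lowest without Sub-fertile replicate 1) and -0.30 to 0.14 points for the share of the family in the library, which was above 0 without Sub-fertile replicate 1 or 2 or Fertile replicate 1. Depth limits miR-507-3p and miR-513-5p most, at 7 and 9 counts in Sub-fertile replicate 1.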
